A study of Homo sapiens with 7 samples.

Results

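The regions described here are reproducible m6A-ORL peaks with no antibody counterpart: peaks of one m6A-ORL library that shared at least 1 nt with a peak of the other m6A-ORL library on the same strand, and that touched no MeRIP peak on either strand. There were 360 of them among 10990 peaks of m6A-ORL replicate 1 and 347 among 7638 peaks of m6A-ORL replicate 2, so 707 of 59604 peaks over 4 lists, with the mitochondrial chromosome left out. They are called members below. Joined where they overlapped, they made up 314 loci in which no peak met MeRIP, while 28 and 22 members sat in 43 further loci where a neighbouring peak did meet it.

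N6-methyladenosine (m6A) was mapped in HEK-293T, a human embryonic kidney cell line, by an antibody method (MeRIP) and a chemical method (m6A-ORL). The sample titles call the captured libraries treated and the input samples control, and they name no agent given to the cells. In MeRIP, fragmented RNA was bound by an anti-m6A antibody. In m6A-ORL, fragments went through NO/O2, TDO and a probe named BA, were caught on streptavidin beads and were released with DTT, per the labels' protocols. Each method had 2 captured libraries with a peak list, and the 3 input samples were not analysed here. m6A-ORL replicate 1 is labelled total RNA and the other 3 captured libraries polyA RNA, although the protocol text that all samples share describes oligo(dT) selection. Replicate and RNA type therefore cannot be told apart within m6A-ORL. Whether the 2 replicates of a method were grown apart is not in the labels.

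In messenger RNA, m6A is laid down mainly by the METTL3-METTL14 complex and is best known from long internal exons and from the region around stop codons and the start of 3′ untranslated regions. Anti-m6A antibodies also bind m6Am, the related mark that an adenosine next to the cap can carry. Genes named below are placed by RefSeq span and by annotated transcription start on GRCh38.p14; the table used here gives no exons, so exonic and intronic positions are not stated.

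The members stood out by where they lay in their genes: many began within 100 nt of an annotated transcription start. The starts of 10 genes with a member near the start in at least 1 library are shown, 6 that begin with C followed by pyrimidines and 4 that do not, so that both kinds can be seen. They are not shown in proportion, since most member starts are of the second kind. Each line has 10 bases before the start and 20 bases from it, 5′ to 3′, from RefSeq (GRCh38.p14), and capitals mark the first transcribed base as annotated or, in the first 6, the run of pyrimidines that begins there.
RACK1, chr5:181243887-181243916, minus strand: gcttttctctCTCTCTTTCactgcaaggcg
RPS13, chr11:17077648-17077677, minus strand: ctctcgctctCCTTTCgttgcctgatcgcc
BTF3, chr5:73498432-73498461, plus strand: cttccggcctCCCTTTagctgccatcttgc
TPT1, chr13:45341164-45341193, minus strand: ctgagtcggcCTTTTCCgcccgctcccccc
RPL36A, chrX:101391001-101391030, plus strand: ctcgcggtttCTTTCTTTCCgcgccgatag
CHCHD10, chr22:23767953-23767982, minus strand: ggggccccgcCTTTTTTgcgccggctgtga
MIF, chr22:23894373-23894402, plus strand: gcgggaccacAgtggtgtccgagaagtcag
COX6A1, chr12:120438103-120438132, plus strand: gcgctgcggcAgtccagatcaaaaatggcg
LDHA, chr11:18394553-18394582, plus strand: ccagctcagaGtgctgcagccgctgccgcc
HNRNPK, chr9:83980596-83980625, minus strand: gtgcgcgaacGagaaaggaggagggcgctc

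The members were chosen by peak overlap, so their overlap with either method is a description. Of all peaks, 13.7% in m6A-ORL replicate 1 and 19.5% in replicate 2 overlapped the other m6A-ORL list. Of those reproducible peaks, 23.9% and 23.4% overlapped no MeRIP peak, against 44.9% and 51.7% of all m6A-ORL peaks. The rule requires only 1 nt between the m6A-ORL lists, and 32 of the 314 loci shared exactly 1 nt, among them SEPTIN2, YWHAE, SRRM2, GADD45GIP1 and MALSU1. Just outside the rule, 12 and 9 reproducible peaks were left out for sharing a single nucleotide with MeRIP. Peak widths ran in steps: 92.8% of members in each library had a width within 2 nt of a multiple of 30 nt, so an edge is placed no more finely than about one such step. Within a member locus the peaks of the 2 libraries shared a median of 90 nt, the shorter peak was covered to a median of 100%, and 15 of 314 loci had identical edges.

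At the 5′ end of genes, the members and the other reproducible peaks differed by a wide margin in both libraries. A start of the peak's own gene on its own strand could be measured for 249 members of replicate 1 and 244 of replicate 2, taking the nearest where a gene has several. The 5′ edge lay within 100 nt of that start for 88 of 249 members in replicate 1, or 35.3% (95% interval 29.4 to 41.6%), and for 91 of 244 in replicate 2, or 37.3% (31.2 to 43.7%). The background over all peaks of the same lists was 12.3% and 10.6%. Among reproducible peaks that MeRIP did overlap, the shares were 8.95% (77 of 860) and 9.07% (77 of 849). The members exceeded these by 26.4 percentage points (20.3 to 32.7) in replicate 1 and 28.2 points (22.0 to 34.7) in replicate 2. Both MeRIP lists, over all their peaks, had shares of 9.07% and 9.32%. Members and MeRIP-overlapped peaks were split by MeRIP overlap, so nearness to the start was not shown to be independent of how members were chosen. Intervals here are exact binomial for a share and Newcombe's for a difference, and they cover counting error only, since peaks of 1 library are not replicates.

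**Figure D1:**
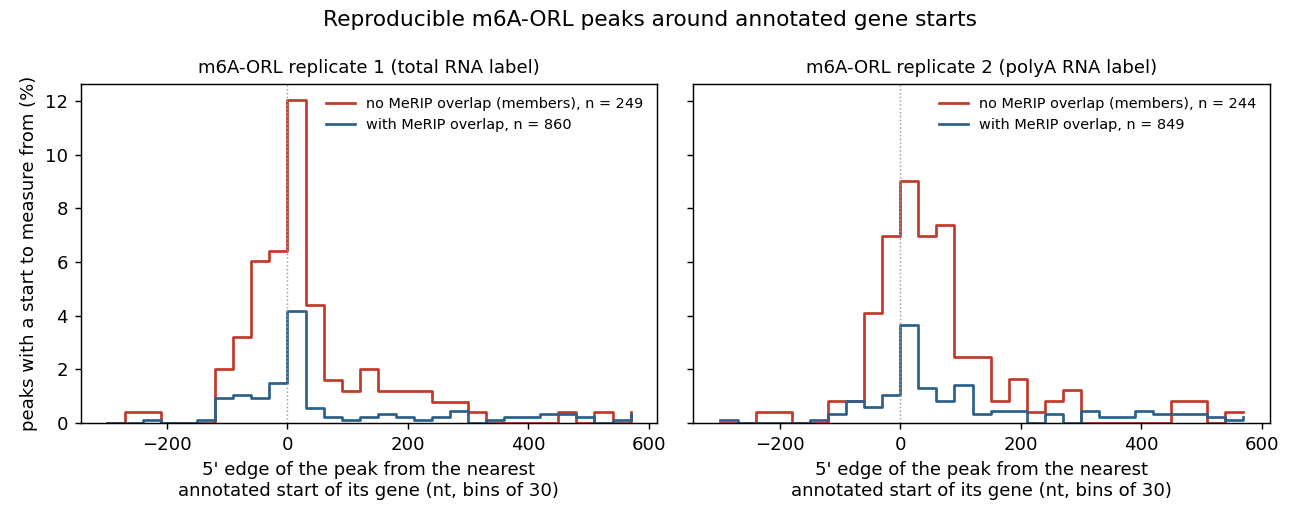
Share of reproducible m6A-ORL peaks (y axis, %) by the distance of the 5′ edge from the nearest annotated start of the gene (x axis, nt, in bins of 30 nt, negative before the start), for members in red and peaks with MeRIP overlap in blue. In both libraries the red line rises highest around 0, where 88 of 249 and 91 of 244 members lie within 100 nt.

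Peaks found by m6A-ORL without MeRIP but in 1 list only gave a different picture in the 2 libraries. Their share within 100 nt of the start was 22.6% in replicate 1 and 9.37% in replicate 2. Members were above them by 12.7 points (6.82 to 19.0) and 27.9 points (22.0 to 34.2). The nearness to starts was therefore higher for members than for either neighbouring class of peaks in each library, by an amount that depended on the library for the peaks of 1 list.

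Measured over loci, 70 of the 220 member loci with a start to measure from in both libraries had both peaks within 100 nt of it, or 31.8% (25.7 to 38.4%), 9 had only the replicate 1 peak there and 16 only the replicate 2 peak. Where every peak of a locus met MeRIP, 57 of 777 loci had both peaks there, or 7.34%. In 29 of the 70 loci the 5′ edge was the same nucleotide in both libraries, and in 7 of those it was the annotated start itself. An edge is placed no more finely than a step of about 30 nt. Along the whole gene span, 121 of 274 member loci, or 44.2% (38.2 to 50.3%), had their midpoint in the first 10% or before it, against 14.6% of 922 loci with MeRIP overlap. The last 10% held 16.8% of member loci (12.6 to 21.8%). It held 35.8% and 35.6% of all peaks of the MeRIP lists. Leaving out peaks that MeRIP overlaps can therefore itself move the rest towards the 5′ end, and position was not independent of how members were chosen. By single peaks, the last 10% held 18.3% and 15.7% of members and 33.4% and 33.3% of the reproducible peaks that MeRIP overlapped, with 31.7% and 27.7% of all peaks and 23.1% and 24.5% of the peaks of 1 m6A-ORL list without MeRIP. The interval of the difference from the last class was −8.94 to 0.03 points in replicate 1, which includes 0, and −12.8 to −4.07 in replicate 2. In genes with peaks in both MeRIP lists, the members' 3′ share differed from that of MeRIP-overlapped peaks by −5.73 points (−13.1 to 2.64) and −6.82 points (−14.1 to 1.60), and both intervals include 0.

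**Figure D2:**
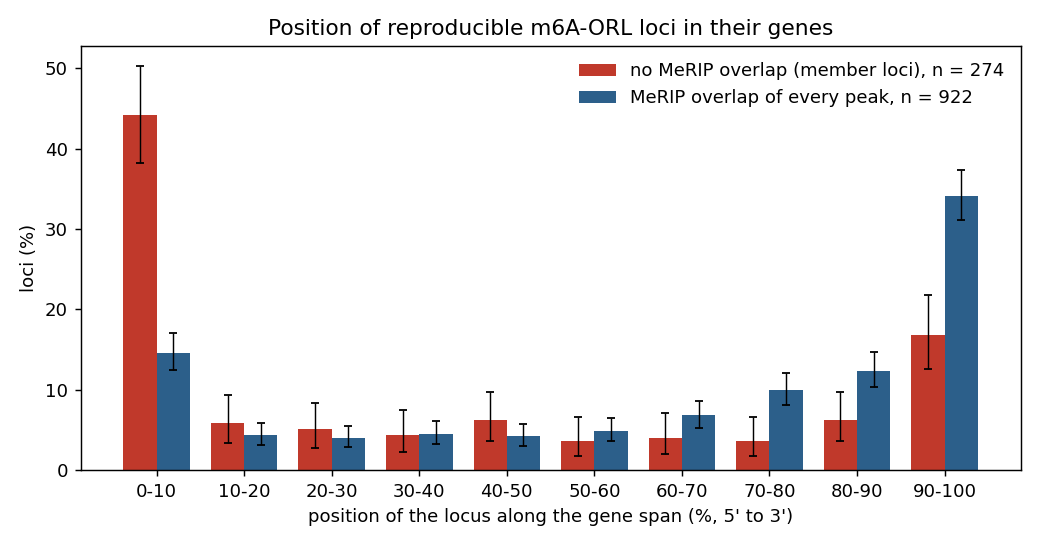
Share of reproducible m6A-ORL loci (y axis, %) in each 10% of the gene span from 5′ to 3′ (x axis), for the 274 member loci in red and the 922 loci with MeRIP overlap in blue, with 95% exact binomial intervals as bars. The first bin holds 44.2% of member loci, and the last bin is the tallest for loci with MeRIP overlap.

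The 5′ placement was smaller in genes that MeRIP also detected. Members there were still above the peaks with MeRIP overlap, a class that is again set apart by that overlap. Among members in genes with peaks in both MeRIP lists, 20.2% of replicate 1 and 18.4% of replicate 2 lay within 100 nt of the start, which was 12.3 points (5.68 to 20.8) and 9.99 points (3.59 to 18.3) above the peaks with MeRIP overlap in such genes. In those genes the peaks of replicate 1 found in 1 list only, without MeRIP, were at 18.8%, and the members' difference from them was 1.37 points, with an interval of −5.30 to 9.88 that includes 0. Among members in genes with no MeRIP peak, 50.4% and 56.6% lay within 100 nt of the start. In such genes the peaks of 1 m6A-ORL list were at 29.3% in replicate 1 and 17.2% in replicate 2. Outside the ribosomal protein genes, protein-coding genes gave 35.5% and 38.3%, and members made of a single block gave 35.8% and 33.5%.

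MIF, a secreted cytokine, held the locus with the best mean rank of deposited scores over both lists. Its peaks began exactly at the annotated start of the gene in both libraries, were 205 nt wide in replicate 1 and 730 nt in replicate 2, and had scores of 2.5e-78 and 4e-40 (a p- or q-value, lower being stronger). No MeRIP peak carried its gene identifier, and the nearest lay 41899 nt away. The antisense gene MIF-AS1 held a member locus of 2 peaks, 1 in each library, on the opposite strand of the same stretch. Across all member loci, 34 of 314 had an m6A-ORL peak on the opposite strand. By single peaks the share was 9.17% and 9.80%, against 10.1% and 10.8% with MeRIP overlap, differences with intervals of −4.13 to 2.84 and −4.32 to 2.95 points, both of which include 0. Over all peaks of the lists the shares were 7.52% and 7.07%. Members were above the peaks of 1 m6A-ORL list without MeRIP by 3.29 points (0.63 to 6.78) and 4.78 points (1.97 to 8.42).

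The start of LDHA, the lactate dehydrogenase subunit that reduces pyruvate, was covered by peaks that began 3 nt before it in both libraries (chr11:18394560-18394769). Widths were 180 and 210 nt, scores 2.5e-19 and 7.9e-90, and no MeRIP peak was listed for the gene. PTGES3, which encodes the HSP90 co-chaperone p23, had peaks that began 94 nt before its nearest annotated start in both libraries, with scores of 7.9e-26 and 2.5e-16. HNRNPK, an RNA-binding protein, had peaks of 2 blocks that began 1 nt before the start in both, with scores of 5e-17 and 1.5e-09. RASGEF1C, a guanine nucleotide exchange factor gene, had peaks of 180 nt that began on the start in both, with scores of 7.9e-50 and 1e-13 and 1 MeRIP peak in each list, 82647 nt away at the nearest. In these 4 genes the 2 libraries placed the 5′ edge on the same nucleotide, although edges are placed in steps of about 30 nt.

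In other genes the edges of the 2 libraries differed. RACK1, a component of the small ribosomal subunit and scaffold protein (chr5:181243702-181244001), had peaks of 300 and 240 nt that began 95 and 35 nt before the start, with scores of 7.9e-28 and 5e-43. MeRIP replicate 1 listed 1 peak for RACK1 and MeRIP replicate 2 none, the nearest 2913 nt away. SET, a histone chaperone and inhibitor of protein phosphatase 2A, began 48 nt before its start in replicate 1 and 191 nt after a start in replicate 2, where the peak spread over 5 blocks and 688 nt. The 2 SET peaks with the best scores shared 30 nt. H2BC21, a histone H2B gene, had scores of 1e-253 in replicate 1 and 1.3e-12 in replicate 2, and began 30 and 149 nt after the start.

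Not every strong member began within 100 nt of a start. ACTG1, which encodes cytoplasmic gamma-actin, was the only named gene with 3 member loci, and no MeRIP peak was listed for it in either library. Its best-ranked locus (chr17:81511047-81511613) began 1186 nt from the nearest annotated start in both libraries, with scores of 6.3e-29 and 2.5e-99 and widths of 210 and 567 nt. The second (chr17:81512641-81514638) had 2 blocks in both libraries and scores of 2.5e-23 and 2e-39. The third (chr17:81510567-81510745) was weaker, at 5e-11 and 2.2e-06. The nearest MeRIP peak to the 3 loci was 15475, 12450 and 16343 nt away, in the same order. Another 10 named genes held 2 member loci each, among them YWHAE, ATXN2L, NT5DC2, IRAK1, STMN1 and PPDPF. RPL13 and RPL13A, ribosomal proteins of the large subunit, had loci over the small nucleolar RNA genes SNORD68 and SNORD33 of their introns. The RPL13 locus joined 3 peaks, with best scores of 2.5e-78 in replicate 1 and 2e-36 in replicate 2. The peaks with these scores, chr16:89561434-89561517 and chr16:89561166-89561436, met only at their ends. RPL13A had scores of 6.3e-70 and 2.5e-11. In all, 4 of the 314 loci (1.27%) covered a RefSeq gene of at most 400 nt for a small RNA by 50% or more. Of the 1010 loci with MeRIP overlap of every peak, 1 did (0.10%). The other small RNA genes at member loci were RNU6ATAC, a minor-spliceosome RNA, and the miRNA gene MIR636 in SRSF2. Of 1562 miRNA hairpins, members of replicate 1 overlapped 0 and members of replicate 2 overlapped 1.

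Base composition at the starts was read from the annotation, 1 window a start, over 106 starts with a member within 100 nt and 89 with a reproducible peak that MeRIP overlapped. The annotated first base was A at 49 of the 106 member starts, or 46.2% (36.5 to 56.2%), and at 60 of the 89 starts with MeRIP overlap, or 67.4% (56.7 to 77.0%). The members were lower by 21.2 percentage points, with an interval for member minus MeRIP-overlapped of −33.9 to −7.22. Over all 12284 annotated starts of named genes with any peak, A was at 46.1%, from which the member starts differed by 0.17 points (−9.06 to 9.67). The starts with a peak of either MeRIP list, whatever m6A-ORL showed, had A at 51.3% of 1644. G was first at 36.8% of member starts and 22.5% of those with MeRIP overlap, with an interval of the difference of 1.37 to 26.4 points. C was first at 17.0% and 8.99%, and that interval, −1.79 to 17.3 points, includes 0. Over all named genes with any peak, G was first at 39.9% and C at 12%, and the intervals of the members' differences from these, −11.7 to 6.46 and −1.01 to 13.3 points, include 0. The annotated start is 1 position, and the base that these cells' transcripts begin with was not measured.

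A C at the start followed by 4 pyrimidines, the letters with which the 5′ terminal oligopyrimidine messages of the translation machinery begin, stood at 11 of 106 member starts, or 10.4% (5.30 to 17.8%). The share was 5.12% over the starts of all named genes with a peak, 4.07% over all 35116 promoter windows of RefSeq, and 4.49% at the starts with MeRIP overlap. The member starts were 5.26 points (0.76 to 12.5) above the genes with a peak, and 5.88 points (−2.01 to 13.6) above the starts with MeRIP overlap, an interval that includes 0. Among these genes, RPS13 encodes a small-subunit ribosomal protein, BTF3 a subunit of the nascent polypeptide-associated complex and TPT1 the translationally controlled tumour protein. Others are not of the translation machinery, such as CHCHD10 of mitochondria, the citrate synthase gene CS, ATP5MG and KDELR1, a receptor that returns proteins to the endoplasmic reticulum. RPS13 had scores of 3.2e-18 and 4e-13 with peaks that began 48 nt before and 190 nt after the start, and the gene had no MeRIP peak. TPT1 had scores of 4.9e-09 and 3.2e-28 and 1 MeRIP peak in each list, the nearest 3591 nt away. Scores of the 2 lists are not on a common scale and are compared only within a list. RPL36A was close to the edge of the rule, with 7 nt shared and a replicate 1 score of 0.00063. The letters GGACT, one form of the m6A consensus, stood on the transcribed strand in the 50 bases from the start at 4.72% of member starts, 5.62% of those with MeRIP overlap and 4.90% of all promoter windows.

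By gene, 270 of 2338 named genes with a peak in both m6A-ORL lists held a member locus, a background of 11.5%. Of these 270, 98 had a member near the start. The gene lists below were chosen with earlier results of these data known, and their counts are descriptions without a test.

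Among the lists counted, the highest shares were in energy metabolism. Of the nuclear genes for the respiratory chain and ATP synthase, which together make most cellular ATP, 18 had a peak in both m6A-ORL lists and 10 of those held a member locus, or 55.6%. In 7 of the 10 a member lay near the start, and 9 had no MeRIP peak under their own gene identifier. Over all 270 genes with a member locus, the same counts were 98 and 132. ATP5MG, a subunit of ATP synthase, is counted among these 9, although its locus includes a peak with a second identifier that has 2 and 1 MeRIP peaks. COX6A1, a subunit of cytochrome c oxidase (chr12:120438090-120438414), began 23 nt before its start in both libraries with identical widths of 176 nt, 2 blocks and scores of 6.3e-19 and 5.8e-10. Under its own identifier COX6A1 had MeRIP peaks elsewhere in the gene, 2 in each list, the nearest 2052 nt away. NDUFB4, of complex I, began 8 nt before its start in both libraries, with scores of 4e-17 and 4.4e-06 and the nearest MeRIP peak 154158 nt away. The complex I genes NDUFV1 and NDUFA2 began 41 and 36 nt before the start in replicate 1 and 49 and 23 nt after it in replicate 2. Their scores were 3e-10 and 2.1e-05 for NDUFV1 and 8.7e-07 and 1.8e-05 for NDUFA2, so the 4 named genes covered a wide range of strength. NDUFS8, also of complex I, lay at the other end of its gene, at 99.4% of the span.

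For glycolysis, 5 of 9 enzymes with a peak in both m6A-ORL lists held a member locus, again 55.6%: ALDOA, LDHA, PGK1, GPI and TPI1. ALDOA, the aldolase that splits fructose 1,6-bisphosphate, had spliced peaks of 3 blocks in both libraries with scores of 1.3e-24 and 2.5e-31. The nearest MeRIP peak to the ALDOA locus was 118 nt away. Its peaks began 10970 nt after an annotated start in replicate 1 and 6 nt after one in replicate 2. The locus carried 2 gene identifiers. PGK1, the first ATP-forming enzyme of the pathway, began 1 nt after its start in replicate 2, with a score of 2.2e-07. In replicate 1 its peak of 3 blocks, with a score of 1e-18, began at −7538 nt, far before the start. TPI1, triosephosphate isomerase, began 22 nt before the start in replicate 2 and 68 nt after it in replicate 1, where its score was 0.001. In 4 of the 5 genes a member lay near the start, against 98 of all 270 genes with a member locus. GPI lay at 80.1% of the gene span.

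The RNA-binding splicing factors of the HNRNP and SRSF families held member loci in 7 of 21 genes, or 33.3%. HNRNPH1 had peaks of 211 nt in both libraries that began 127 nt after the start, with scores of 7.9e-17 and 1.1e-05. HNRNPDL was of the other kind, with 1 and 2 MeRIP peaks in the gene, the nearest 179 nt from the member, and scores of 3.5e-06 and 1.6e-22. HNRNPAB lay at 89.8% of its span. Of 14 chaperone genes, 4 held a member locus and none of the 4 had a MeRIP peak: the mitochondrial chaperonin HSPD1 and the cytosolic chaperonin subunits TCP1, CCT3 and CCT4. Over all 270 genes with a member locus, 132 had no MeRIP peak. HSPD1 was the strongest of the 4 chaperone genes, at 3.2e-30 and 1e-11, with 3 blocks in both libraries. TCP1 had 7.9e-14 and 4.9e-07, and its replicate 2 peak began 41 nt before the start.

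Of the protein synthesis lists, cytosolic ribosomal proteins held member loci in 8 of 31 genes (25.8%), aminoacyl-tRNA synthetases in 3 of 14 (21.4%) and translation factors in 3 of 18 (16.7%). EIF4G2, an initiation factor related to EIF4G1, began 14 nt before its start in both libraries, with scores of 1e-22 and 1.8e-10 and no MeRIP peak. EIF4G1, the scaffold of the cap-binding complex, was of a different kind: it had 7 and 6 MeRIP peaks, and its member locus ended 29 nt from the nearest. TARS1, the threonyl-tRNA synthetase, had peaks of 210 nt in both libraries that began 59 nt before the start. Ribosomal protein genes have many near-identical pseudogenes, for which the placement of reads is uncertain.

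ZNF genes, the zinc finger family, held member loci in 3 of 56 genes, or 5.36%, under the background. Actins and tubulins held them in 2 of 7 genes, snoRNA host genes in 2 of 5 and histones in 1 of 6, which are too few genes to describe further. No member locus was in the 9 genes for m6A writers, erasers and readers, or in the 5 proteasome genes, that had a peak in both m6A-ORL lists.

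**Figure D3:**
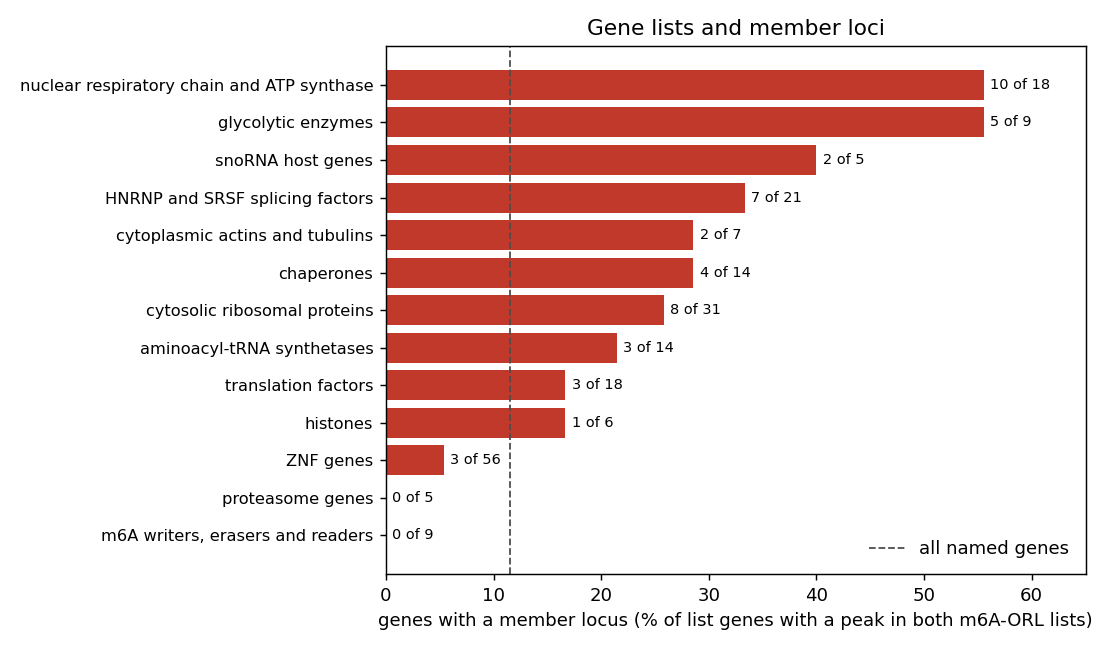
Share of the genes of each list that held a member locus (x axis, % of the list's genes with a peak in both m6A-ORL lists), with the counts beside the bars and the share over all 2338 named genes, 11.5%, as a dashed line. The respiratory chain and glycolysis lists have the longest bars, and most lists hold few genes.

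Most members lay far from MeRIP. The nearest MeRIP peak on either strand was a median of 8453 nt away in replicate 1 and 8128 nt in replicate 2. It was within 100 nt for 32 and 24 members, or 8.89% and 6.92%, while the middle 50% of members lay between 1017 and 40101 nt in replicate 1 and between 1152.5 and 39099.5 nt in replicate 2. Among the 314 loci the nearest to MeRIP was SEPTIN2, a cytoskeletal GTP-binding protein gene, at 11 nt, and ARF3, NCOA5 and ZNF771 were at 28 or 29 nt. These 3 genes had 3 to 5 peaks in MeRIP replicate 1 and 2 to 5 in replicate 2. The farthest was RNA5-8SP6 on chromosome Y, at 955542 nt, with peaks of 152 nt in both libraries. Next came the pseudogene RNPS1P1 at 917458 nt, KIF2A, a microtubule-depolymerising kinesin, at 761907 nt and PGAP1, which remodels GPI anchors, at 606789 nt. By locus, 139 of 314 were in a gene with peaks in both MeRIP lists, 16 in a gene with peaks in 1 list and 159 (50.6%) in a gene with none. The rule itself keeps loci with MeRIP overlap out of that last class, so the share is a description. By single peaks, 49.4% of members in replicate 1 and 50.4% in replicate 2 were in a gene with no MeRIP peak. Over all peaks of the lists, the shares were 24.3% and 16.9%. Among peaks of 1 m6A-ORL list without MeRIP they were 54.1% and 30.7%. The members' difference from these was −4.68 points (−10.0 to 0.66) in replicate 1 and 19.8 points (14.3 to 25.2) in replicate 2. Members were thus above them in replicate 2 and not shown to be above them in replicate 1.

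**Figure D4:**
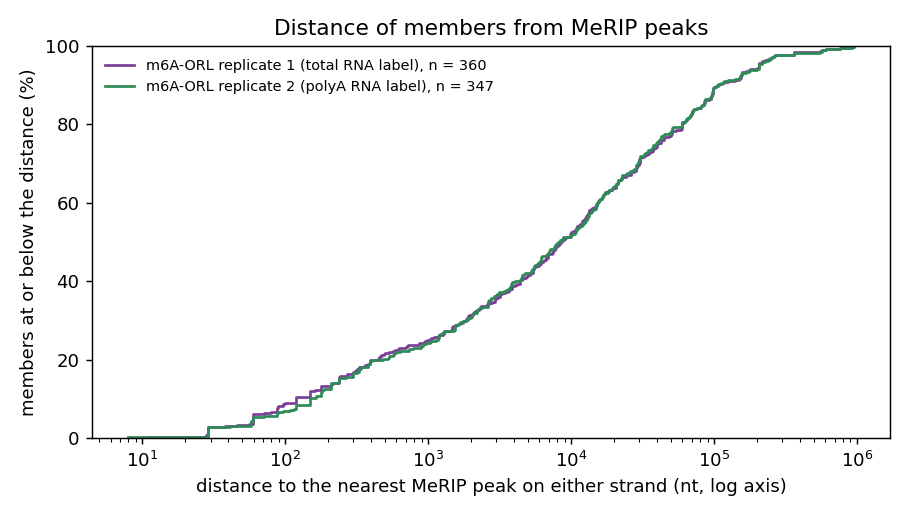
Cumulative share of members (y axis, %) by distance to the nearest MeRIP peak on either strand (x axis, nt, log axis), for the 360 members of replicate 1 and the 347 of replicate 2. The curves of the 2 libraries lie almost on each other, with medians of 8453 and 8128 nt, as they must where members pair up.

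Splicing set members apart from MeRIP-overlapped peaks in each library. A block is a piece of a peak on one side of a splice junction, and 22.2% (18.0 to 26.9%) of members in replicate 1 and 30.8% (26.0 to 36.0%) in replicate 2 had 2 or more, against a background of 9.91% and 27.8% over all peaks. Among reproducible peaks with MeRIP overlap, 9.07% and 14.1% did, which was 13.2 points (8.78 to 18.0) and 16.7 points (11.6 to 22.1) lower. These classes were split by MeRIP overlap, so block number was not shown to be independent of how members were chosen. Against peaks of 1 m6A-ORL list without MeRIP, the libraries went opposite ways: member minus 1-list peak was 7.40 points (3.27 to 12.1) in replicate 1 and −6.17 points (−11.1 to −0.89) in replicate 2. Number of blocks agreed between the 2 libraries at 224 of 314 member loci.

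Members were narrower than the reproducible peaks that MeRIP overlapped and not narrow for their lists. The median width was 150 nt in replicate 1 and 174 nt in replicate 2, against 142 and 148 nt over all peaks of the same lists and 210 and 181 nt for reproducible peaks with MeRIP overlap. Widths of 300 nt or more were found in 3.61% and 11.2% of members, 26.3% and 23.4% of reproducible peaks with MeRIP overlap, 1.83% and 4.69% of peaks of 1 m6A-ORL list without MeRIP, and 9.37% and 9.96% of all peaks. A wide peak has more chances to touch a MeRIP peak, so width is not independent of how members were chosen and is given without an interval of the difference. Among the widest loci were MAZ, a zinc finger transcription factor gene, with 150 and 685 nt, and MVP-DT on the opposite strand of the same stretch, with 180 and 749 nt. The lncRNA gene LOC124903672 had 60 and 622 nt, so in these 3 the width came from the replicate 2 peak. The strength of members depended on the library. In the 50% of the list with the best scores there were 60% of members and 72.1% of MeRIP-overlapped reproducible peaks in replicate 1, a difference of −12.1 points (−17.8 to −6.50), and 66.6% and 67.1% in replicate 2, a difference of −0.51 points (−6.28 to 5.01). Across the 314 loci the score ranks of the 2 libraries had a Spearman's rho of 0.13, given as a description, and across 1010 loci with MeRIP overlap it was 0.23. Loci share their libraries and are not independent.

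**Figure D5:**
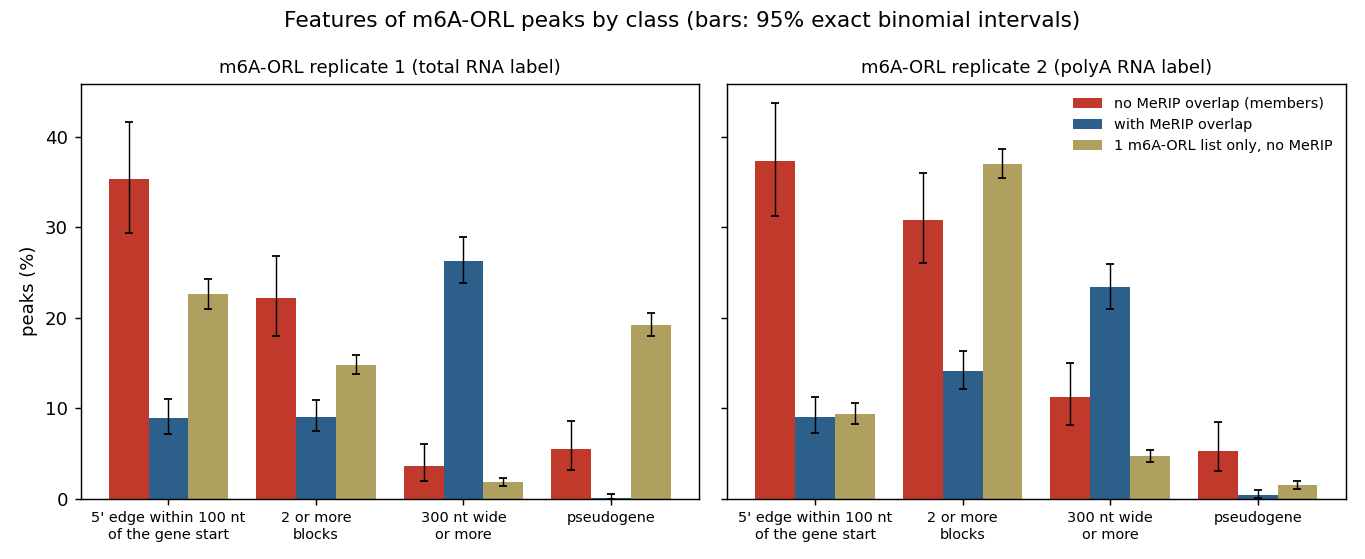
Share of m6A-ORL peaks (y axis, %) with each of 4 features, in members (red), reproducible peaks with MeRIP overlap (blue) and peaks of 1 m6A-ORL list without MeRIP overlap (sand), per library, with 95% exact binomial intervals as bars. Members are above the blue bars for nearness to the start, blocks and pseudogenes and below them for width.

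By kind of gene, 254 of the 314 member loci were in protein-coding genes, 15 in pseudogenes, 11 in lncRNA genes and 34 in genes left unnamed. Pseudogenes made up 5.45% and 5.33% of the members with a named gene, against 0.10% and 0.40% of reproducible peaks with MeRIP overlap and 8.24% and 1.10% of all peaks of the same lists. Members were thus below the share of their whole list in replicate 1 and above it in replicate 2. Among peaks of 1 m6A-ORL list without MeRIP, the share was 19.2% in replicate 1, labelled total RNA, and 1.5% in replicate 2. The best-ranked was MTND4P12, a nuclear copy of the mitochondrial complex I gene ND4, at scores of 6.3e-44 and 4e-15. Others, such as RPL6P27, RPL13AP5, RPL4P4 and YBX1P10, are copies of protein-coding genes, and reads of a processed pseudogene and its parent cannot be told apart from a peak list.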

How the data were processed

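The data are 4 peak lists, 1 per captured HEK-293T library, on hg38, in which each peak has a strand, blocks, an Ensembl gene ID and a deposited score. The score is a p-value or q-value as the authors deposited it, between 0 and 0.0081; which of them it is, the peak caller, the threshold and the read depth: not given in the sources used here. Per the submitters' processing notes, Trim Galore, STAR and HOMER were used, with no roles stated. Duplicate lines (4 and 3 in the MeRIP lists, 2 and 1 in the m6A-ORL lists) and 32 and 23 mitochondrial m6A-ORL peaks were removed. The members and the gene lists were chosen with earlier results of these data known.

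Overlap was computed on blocks in Python 3.11.15 (pandas 2.3.3, scipy 1.17.1); it found the same 360 and 347 members as bedtools 2.31.1 and placed 1400 of 1400 simulated peaks rightly. Genes were named by position, since 0 IDs matched the RefSeq table: 11154 of 13540 IDs (82.4%), and 272 of the 317 IDs of the member loci. An ID took a name when 90% of its peak bases lay in 1 RefSeq span, or 50% in a span extended by 500 nt; names can be wrong where genes overlap. Start distances used the RefSeq promoter table, in which several starts of a gene are listed and chromosome 8 was not used here. Loci were named from the 15 of best mean score rank, genes with 3 or more loci, up to 4 genes a list, the 5 nearest to and farthest from MeRIP, the 5 widest, and those with fewest shared nucleotides; some of these are given by count only, and a few more names of the same groups were chosen after their values were seen. No test was made across peaks. With no depth to go by, precision rests on how many peaks a share counts.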

Additional observations from a re-analysis of the deposited data

How the results depend on the processing

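No paired analysis was possible because the results come from no test and the rule needs both m6A-ORL lists, so neither can be left out; the shared replicate numbers of the labels link no libraries here. Leaving out a MeRIP replicate raised the members to between 25.0 and 26.9% of reproducible peaks in m6A-ORL replicate 1 and between 24.3 and 26.4% in replicate 2, the higher value without MeRIP replicate 1 in both. Leaving out peaks within 200 nt of MeRIP gave 20.7% and 20.4%. Keeping the 50% of each m6A-ORL list with the best scores left 158 and 150 members and 135 loci, by construction, which were 21.6% and 20.9% of reproducible peaks, with median widths of 181 and 210 nt and 2 or more blocks in 28.5% and 41.3%; 44.3% of the replicate 2 members then lay within 100 nt of the start. Requiring 50% of the shorter peak to overlap left 256 loci and lowered the share in ribosomal protein genes from 2.55% to 0.78%. Start windows, added after the data were seen, gave 26.5% and 24.6% at 50 nt and 45.0% and 46.7% at 300 nt, and counting any RefSeq start on the strand gave 28.4% and 29.4%. The other values stayed within the interval of the main value, or within 1.5 times a main count.

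The lists give no read counts, so a region without a MeRIP peak was not shown to lack MeRIP signal, and a difference in depth between the methods cannot be told apart from one in capture. Genes named by position, the start table and a 30 nt step of the edges limit the distances from starts.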
